A study of Mus musculus with 2 samples.

Results

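The genes described are the laminin chains and the integrin chains of the mouse, chosen by symbol among the protein-coding genes of a RefSeq table of the GRCm38 assembly. They number 38 of 21900 protein-coding genes, with 11 laminin chains, 18 integrin alpha chains and 9 integrin beta chains. The samples were 1 ac4C immunoprecipitation library and 1 input control library, both from polyA RNA. The tissue was whole uterus, taken on gestational day 4 from wild-type mice. N4-acetylcytidine (ac4C) is a cytidine with an acetyl group, and acRIP-seq enriches RNA pieces that carry it with an antibody, for comparison with the RNA before enrichment. The strain, the age and the number of animals behind each library were not given in the labels. The values are those of the authors' list of 21192 peaks, and with 1 library in each group no value has a replicate check.

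Laminins are large secreted proteins of basement membranes, the sheets of matrix under epithelia and around smooth muscle and vessels. Each is a trimer of an alpha, a beta and a gamma chain. Integrins are cell surface receptors made of 1 alpha and 1 beta chain, which bind laminins, collagens, fibronectin or other cells and link them to the cytoskeleton. In the uterus, laminins underlie the luminal and glandular epithelium and surround muscle and decidualising stroma, and several integrins have been studied as markers of receptivity. The ac4C mark on RNA is written by the acetyltransferase Nat10.

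A gene was counted as holding a peak when the summit of a peak lay in its span, introns included. The depth of each peak is given as the number of immunoprecipitated fragments at its summit and the background there, also in fragments, both worked back from the deposited fold enrichment and p-value. Fold enrichment is the authors' value per peak, fragments plus 1 over background plus 1. Its 95% interval here is the exact Poisson interval of the fragments and covers counting error of the immunoprecipitation only. The 114 peaks in the laminin and integrin genes rested on 6 to 73 fragments (median 21.5), close to the median of 22 over the whole list.

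As a look at the tissue, peaks were counted in marker genes of cell types. Peaks were held by 7 of 8 markers of uterine epithelium, 6 of 6 of stroma, 6 of 6 of smooth muscle and 4 of 5 of endothelium. They were held by 3 of 7 leukocyte markers (42.9%), 0 of 4 platelet markers and 0 of 4 blastocyst markers, against 30.7% of all protein-coding genes. The leukocyte list includes Itgam and the platelet list Itga2b, both integrin chains of the family. In a whole organ, fewer cells of a type, less RNA per cell and less ac4C on that RNA cannot be told apart by peaks. The counts therefore do not show which cells were present.

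The starts of 7 genes are shown first, since in each of them a peak had its summit within 500 bp of an annotated transcript start. They are the laminin chains Lama5, Lamb1 and Lamb2 and the integrin chains Itga3, Itga5, Itgav and Itgb1. Each sequence is read 5′ to 3′ on the gene's strand from RefSeq promoters of GRCm38.p6, with 70 bases before the start in lower case and the first 30 transcribed bases in capitals.
Lama5 (chr2:180225830-180225929, minus strand): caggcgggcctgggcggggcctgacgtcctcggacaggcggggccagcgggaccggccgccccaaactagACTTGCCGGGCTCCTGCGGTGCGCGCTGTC
Lamb1 (chr12:31265223-31265322, plus strand): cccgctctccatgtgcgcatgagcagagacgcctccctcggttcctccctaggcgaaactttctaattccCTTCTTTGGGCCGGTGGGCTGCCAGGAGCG
Lamb2 (chr9:108479792-108479891, plus strand): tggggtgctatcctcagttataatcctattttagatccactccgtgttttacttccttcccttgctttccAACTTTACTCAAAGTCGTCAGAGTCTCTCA
Itga3 (chr11:95076685-95076784, minus strand): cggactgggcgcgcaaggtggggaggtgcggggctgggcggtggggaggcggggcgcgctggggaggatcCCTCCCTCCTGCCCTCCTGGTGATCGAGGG
Itga5 (chr15:103366762-103366861, minus strand): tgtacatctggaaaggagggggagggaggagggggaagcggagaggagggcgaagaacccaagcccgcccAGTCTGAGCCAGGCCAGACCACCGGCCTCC
Itgav (chr2:83724327-83724426, plus strand): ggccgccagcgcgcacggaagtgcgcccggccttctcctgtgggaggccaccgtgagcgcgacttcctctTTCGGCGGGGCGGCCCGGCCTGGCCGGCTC
Itgb1 (chr8:128685584-128685683, plus strand): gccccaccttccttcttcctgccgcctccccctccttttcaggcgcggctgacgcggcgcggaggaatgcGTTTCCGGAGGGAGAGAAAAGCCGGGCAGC

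In all 7 genes the summit lay downstream of the start, by 171 bp in Itgb1 to 402 bp in Lamb2. None of these peaks covered the start itself. The peak nearest to its start was that of Lama5, which began 16 bp into the transcript, so that the last part of the capitals shown for it lies in the peak. The peak of Lamb1 began 39 bp, that of Itgav 55 bp and that of Lamb2 277 bp from the start. A start was listed for 24 of the 38 genes, and 11 of these also held a peak. The start listed for Itga9 lies within the span, downstream of its first peak. The 7 genes thus make up 63.6% of those 11, while 24.0% of the 5351 protein-coding genes with a listed start and a peak had a summit within 500 bp of it. The share rose with the number of peaks in a gene, from 16.9% of all genes with 1 peak to 44.4% of those with 10 or more. Among the laminin and integrin genes, it was 1 of 2 genes with 1 peak, 1 of 2 with 2 peaks, 2 of 4 with 3 to 9 and 3 of 3 with 10 or more. Several of the peaks near a start were thin. They rested on 9 fragments in Itga5, 12 in Itga3, 13 in Itgb1 and Lama5, 20 in Lamb1, 21 in Itgav and 28 in Lamb2. The median was 22 over the whole list. Fold enrichment was only 4.08 in Itga3, the lowest of that gene, and 4.15 in Itga5. The share was not computed again with deeper or stronger peaks only.

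The first 50 transcribed bases of these 7 starts held 20 to 50% cytidine (median 36%), against a median of 28% over 21263 starts of protein-coding genes. The median was 30% over the 27 listed starts of laminin and integrin genes, and also 30% over 6741 starts that no peak covered in protein-coding genes with a peak. The repeat CNNCNNCNNCNN, with a cytidine at 1 in 3 bases over 4 rounds, was sought in the same 50 bases. On the transcribed strand it was found in Lama5, Itga5 and Itgav, and on the opposite strand in Itga5 and Itgav. Of all 27 listed starts of laminin and integrin genes, 9 held it on the transcribed strand (33.3%) and 14 on either strand (51.9%), against 24.7% and 50.4% of all protein-coding starts and 31.0% and 61.3% of those 6741 starts. Overlapping matches were counted once per start. These bases lie mostly before the peaks, so the match describes the starts and not the enriched fragments.

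Across the family, 17 of 38 genes held a peak, against 30.7% of all protein-coding genes. The laminin chains stood at 7 of 11 (63.6%), the integrin alpha chains at 7 of 18 (38.9%) and the integrin beta chains at 3 of 9 (33.3%). The integrins were thus near the share of all genes and the laminins above it. These shares were not matched for span. The median span was 64.5 kb for laminins, 56.4 kb for alpha and 47.9 kb for beta chains, against 17.1 kb over all protein-coding genes. Over all genes it was 26.5 kb with a peak and 14.2 kb without, while among laminins it was 64.5 kb and 94.6 kb. The laminin chains held 65 peaks, the alpha chains 27 and the beta chains 22. Of the 38 genes, 5 held 10 or more peaks, against 1.37% of all protein-coding genes. These were Lama5, Lamc3, Lamb2, Itga3 and Itgb4. Among genes with a peak, the highest peak of a gene had a median fold enrichment of 9.84 for laminins, 6.87 for alpha chains and 8.35 for beta chains, against 6.61 over all 6717 protein-coding genes with a peak. The order of the laminin and beta medians turned with peaks of at least median fold or with a −log10 q of at least 10, when the 2 beta chains left had a median of 10.4. That of the alpha and beta medians turned with peaks of at least 20 fragments, when 3 alpha chains had a median of 9.67 and 2 beta chains one of 8.59.

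**Figure D1:**
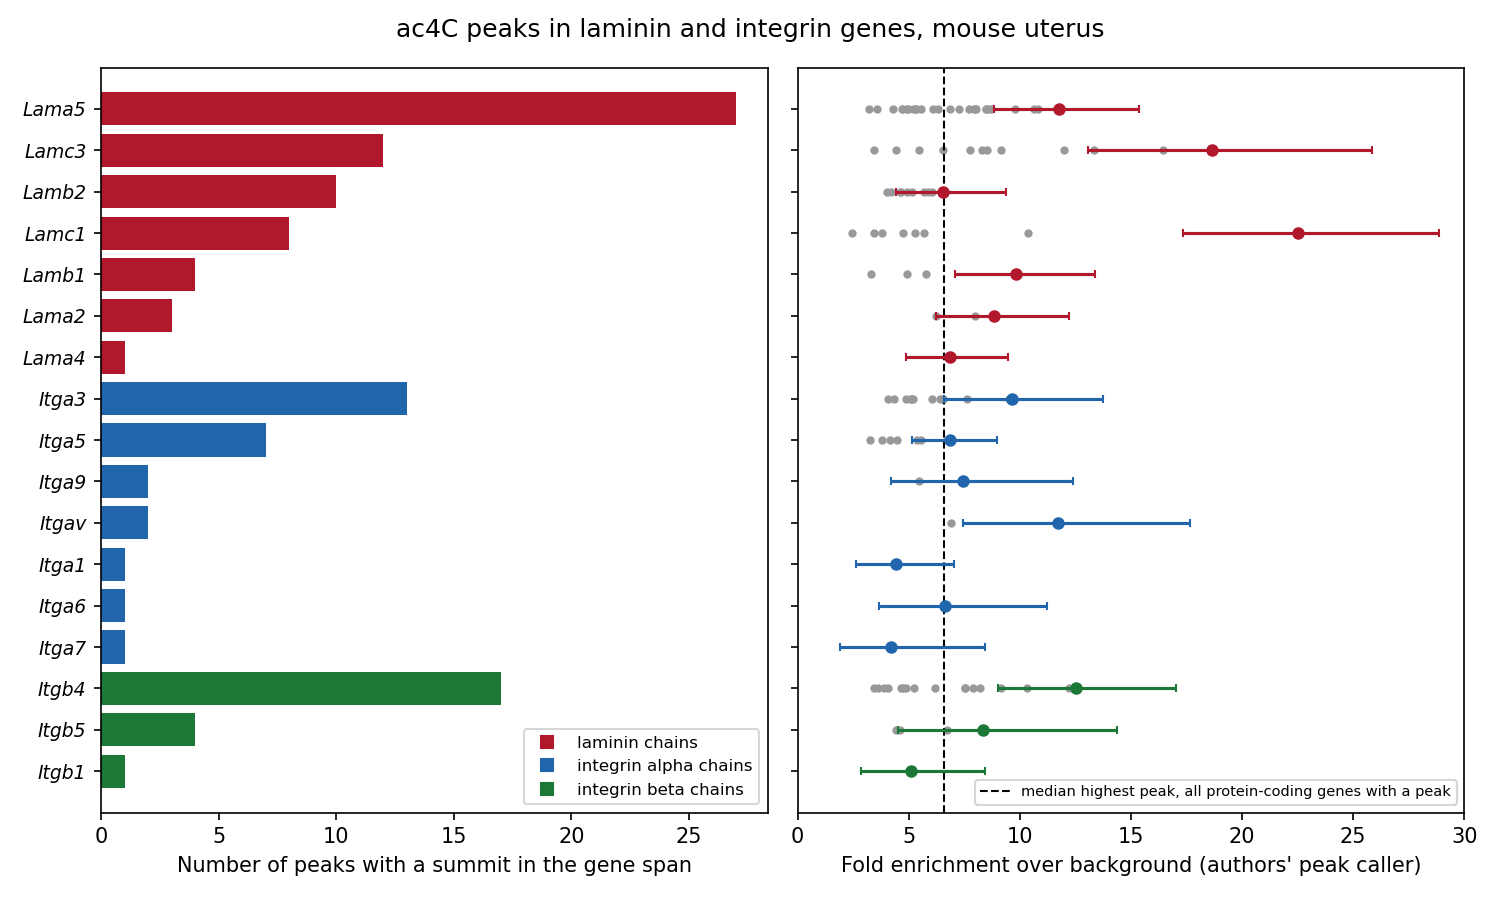
Number of peaks in each of the 17 laminin and integrin genes with a peak (left, bars) and fold enrichment of each peak (right, grey points), with the highest peak of each gene in the colour of its class and its 95% counting interval as a bar; the dashed line is the median highest peak of all protein-coding genes with a peak, 6.61. Lama5 held 27 peaks and Itgb4 17, and the highest fold enrichments were those of Lamc1 and Lamc3.

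The alpha chains of laminin carry the globular domains that bind cell receptors. Of the 5, 3 held peaks. Lama5 (NCBI gene 16776), the alpha chain of most adult epithelial and vascular basement membranes, held 27 peaks and ranked 13 among all protein-coding genes by number. Its peaks covered 17564 bp, 35.5% of a span of 49.5 kb, with a median of 942 bp between neighbouring summits. Their fold enrichment ran from 3.23 to 11.8 (median 6.88) on 10 to 52 fragments. The highest (chr2:180192101-180192616) stood at 11.8 (95% interval 8.85 to 15.4) on 52 fragments over a background of 3.50. The intervals of 12 of the other 26 peaks lay wholly below that interval. The peak at the start stood at 10.6 (6.02 to 17.6), on only 13 fragments over the lowest background of the family, 0.317. This was also the floor of the background over the whole list, where 619 peaks stood. The summit at the start also lay in Gm52542, a long non-coding RNA gene, and the list gives no strand.

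Lama2 (NCBI gene 16773), the alpha chain of muscle basement membranes, held 3 peaks in a span of 635.9 kb. They stood at 8.86 (95% interval 6.24 to 12.2), 8.0 (4.61 to 13.1) and 6.21 (3.65 to 9.99), and the 3 intervals overlapped. Neighbouring summits were at least 175682 bp apart. Lama4 (NCBI gene 16775), the alpha chain of vessel and smooth muscle basement membranes, held 1 peak at 6.88 (4.88 to 9.45) on 36 fragments, with its summit 203 bp from an end of the span. Lama1 and Lama3 held none.

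Of the beta chains, Lamb1 and Lamb2 held peaks and Lamb3 did not. Lamb2 (NCBI gene 16779) held 10 peaks in a span of 10.7 kb, and they covered 57.2% of it, the largest share in the family. Their fold enrichment was even, from 4.05 to 6.57, and the intervals of all 10 overlapped that of the highest (6.57, 95% interval 4.44 to 9.39). Lamb1 (NCBI gene 16777), the beta chain of most embryonic and many adult laminins, held 4 peaks in 64.5 kb. The highest (chr12:31266529-31266787), 1394 bp from the start, stood at 9.84 (7.07 to 13.4) on 39 fragments. The peak at the start stood at 5.79 (3.64 to 8.79), and the 2 farther along the gene at 4.91 (3.65 to 6.45) and 3.33 (2.28 to 4.70). The intervals of these last 2 lay below that of the highest.

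The gamma chains gave the highest fold enrichments of the family. Lamc1 (NCBI gene 226519), the gamma chain of most laminins, held 8 peaks. The highest (chr1:153332001-153332585) stood at 22.5 (95% interval 17.3 to 28.8) and ranked 46 among the highest peaks of the 6717 protein-coding genes with a peak. The other 7 stood at 2.45 to 10.4, and the intervals of all 7 lay below that of the highest. The highest peak did not hold most fragments, with 61 against 32 to 73 in the others. Its background was 1.75 fragments, against 4.81 to 21.4 in the others, and the intervals do not cover error in these backgrounds. It lay 512 bp from the upper end of a span of 113.9 kb, 69620 bp from the next summit.

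Lamc3 (NCBI gene 23928), a gamma chain of narrower expression, held 12 peaks and had the highest typical enrichment among the genes with more than 2 peaks, with a median of 8.41. Its highest peak (chr2:31887297-31887732), 258 bp from an end of the span, stood at 18.7 (95% interval 13.1 to 25.9) on 34 fragments. Next were 16.4 (11.7 to 22.5), 13.3 (8.73 to 19.6) and 12.0 (7.05 to 19.3), all with intervals that overlapped that of the highest. The lowest stood at 3.44. Its backgrounds were low, from 0.333 to 3.50 fragments.

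Integrin alpha chains set the ligand that a receptor binds. Among the 3 grouped here as laminin-binding, after the values were seen, Itga3 (NCBI gene 16400) held 13 peaks and Itga6 and Itga7 held 1 each. The 2 highest peaks of Itga3 stood at 9.67 (95% interval 6.59 to 13.8; chr11:95044604-95045181) and 9.51 (6.34 to 13.8; chr11:95045452-95045928), on 29 and 26 fragments. They were the 2 nearest to the 3′ end of the span. The other 11 stood at 4.08 to 7.64, and no interval lay wholly below that of the highest. Itga6 (NCBI gene 16403), the partner of Itgb4 in hemidesmosomes, had its peak at 6.65 (3.68 to 11.2), 438 bp from an end of the span. Itga7 (NCBI gene 16404), a muscle chain, had its peak at 4.2 (1.92 to 8.44) on 6 fragments, the fewest in the family, and the summit also lay in the long non-coding RNA gene Gm46186.

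Among the 4 alpha chains that bind the RGD sequence of fibronectin, vitronectin and fibrinogen, Itga5 and Itgav held peaks and Itga8 and Itga2b did not. Itgav (NCBI gene 16410) held 2 peaks, and that near the start (chr2:83724452-83725222) had the highest fold enrichment of any alpha chain, 11.7 (95% interval 7.46 to 17.6) on 21 fragments. The other stood at 6.92 (4.06 to 11.1), with an interval that overlapped the first. Itga5 (NCBI gene 16402), the fibronectin receptor chain, held 7 peaks at 3.28 to 6.87. The highest (chr15:103345064-103345519) stood at 6.87 (5.15 to 9.0) on 51 fragments, and the interval of 1 of the other 6 lay below it.

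Of the 4 collagen-binding chains only Itga1 (NCBI gene 109700) held a peak, at 4.43 (95% interval 2.64 to 7.03). Its summit also lay in Pelo, a protein-coding gene within the span of Itga1, so this peak cannot be given to 1 of the 2 genes. It was the 1 summit of the family shared with another protein-coding gene. Itga2, Itga10 and Itga11 held none. Itga9 (NCBI gene 104099), which binds tenascin and osteopontin, held 2 peaks at 7.46 (4.22 to 12.4) and 5.45 (3.15 to 8.90), the second also in the pseudogene Gm10157. Itga4, its closest relative, held none. The 5 chains of leukocyte integrins, Itgal, Itgam, Itgax, Itgad and Itgae, held 0 peaks. The leukocyte markers Ptprc, Adgre1 and Itgam, the last of which is one of these 5 chains, held none either, while Csf1r, Cd3e and Cd68 did. The part of leukocyte number in this result was not tested.

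Among the integrin beta chains, Itgb4 (NCBI gene 192897), the hemidesmosome chain with a long cytoplasmic tail, held 17 of the 22 peaks and ranked 52 among all protein-coding genes by number. Its peaks covered 19.4% of a span of 33.7 kb, with fold enrichments from 3.44 to 12.5 (median 6.18) on 8 to 41 fragments. The highest (chr11:116007634-116008307), 448 bp from the upper end of the span, stood at 12.5 (95% interval 9.01 to 17.0). The next were 12.2 (7.94 to 18.1) and 10.3 (7.49 to 13.9), and the intervals of 8 of the 16 others lay below that of the highest. Of the 17 summits, 6 also lay in the long non-coding RNA gene B230344G16Rik, with fold enrichments from 3.89 to 7.89.

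Itgb5 (NCBI gene 16419), a partner of Itgav in binding vitronectin, held 4 peaks. The 2 in the earlier part of the gene stood at 8.35 (95% interval 4.51 to 14.4) and 6.71 (3.63 to 11.6), on 11 fragments each. The 2 near the 3′ end stood at 4.41 (2.59 to 7.10) and 4.63 (3.21 to 6.48), so all 4 intervals overlapped. Itgb1 (NCBI gene 16412), the common partner of most alpha chains, held a single peak, that near its start, at 5.09 (2.88 to 8.44) on 13 fragments. The other partners of Itgav, namely Itgb3, Itgb6 and Itgb8, held none, nor did the leukocyte chains Itgb2, Itgb2l and Itgb7. For the 21 genes with no peak the background was not given, so a missing peak there does not show that ac4C was absent.

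**Figure D2:**
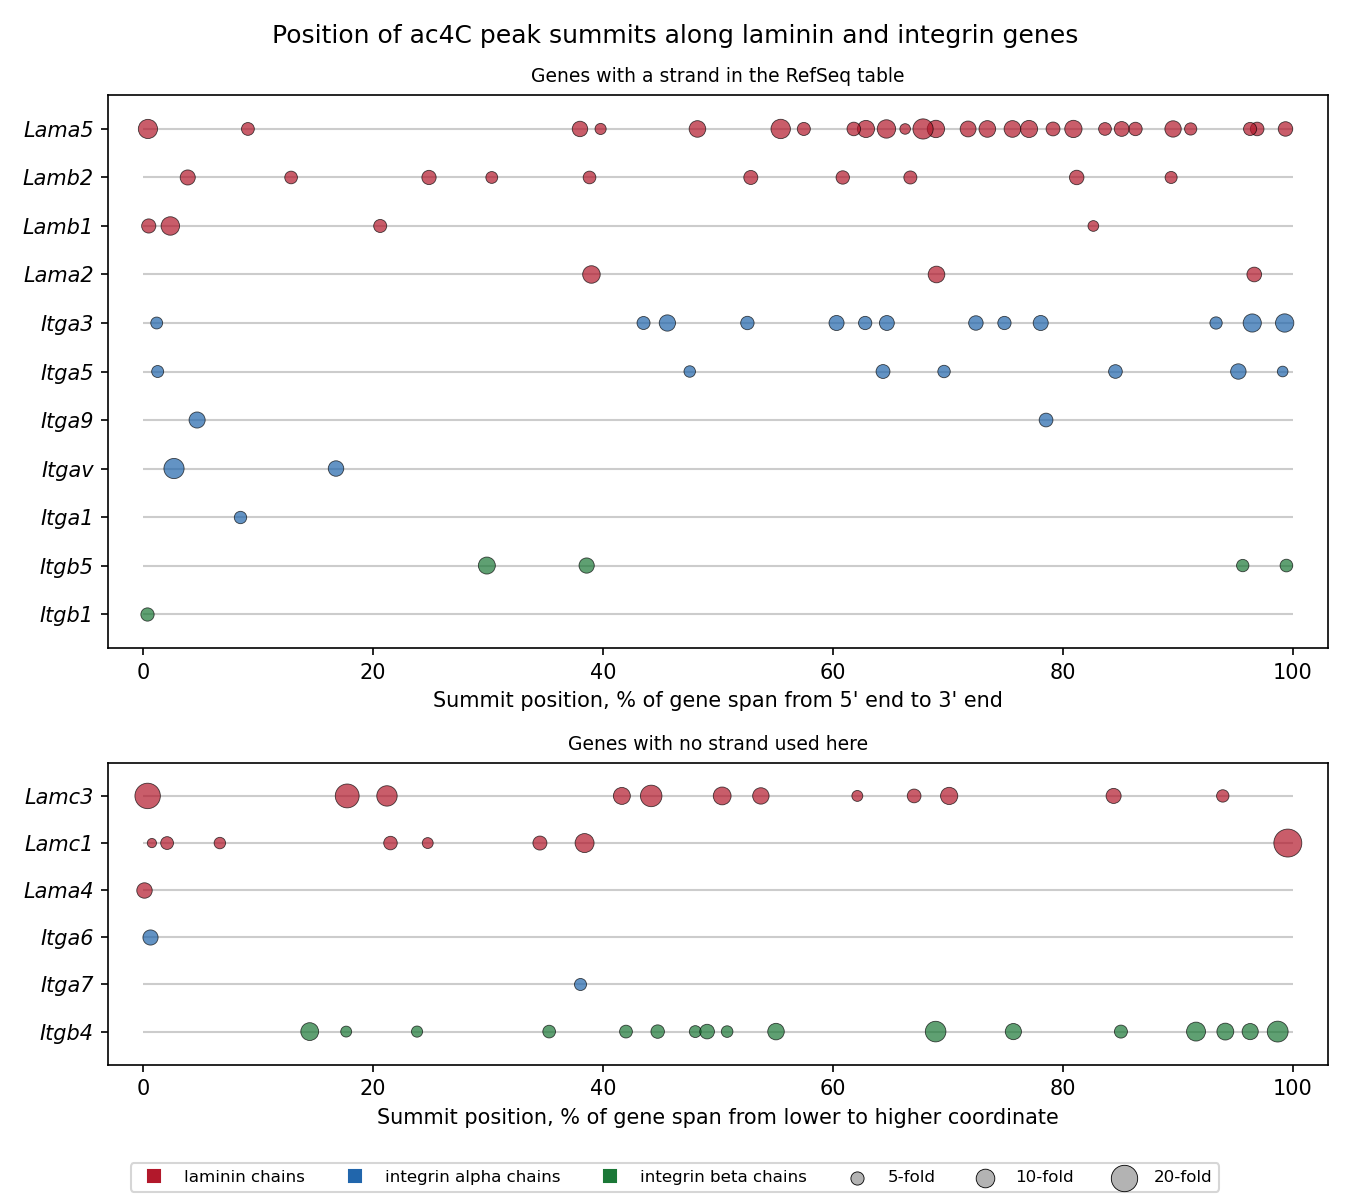
Position of each summit as a percentage of the gene span, from the 5′ to the 3′ end in 11 genes with a listed strand (top) and from the lower to the higher coordinate in 6 genes for which no strand was used (bottom); the area of a point grows with fold enrichment. Of the 27 summits of Lama5, 16 lay in the last of 3 equal parts of the span, and the highest peak of Lamc1 stood apart at the upper end.

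Along the 11 genes with a listed strand, 17 summits lay in the first, 22 in the middle and 35 in the last of 3 equal parts of the gene span (23.0%, 29.7% and 47.3% of 74). Over all protein-coding genes with a listed start the shares were 22.9%, 23.8% and 53.3% of 16163. The genes differed among themselves. Lama5 had 2, 9 and 16 summits in the 3 parts and Itga3 had 1, 6 and 6, while Lamb2 had 4, 3 and 3 and Lamb1 had 3, 0 and 1. Spans include introns, so these positions are not positions along the mRNA.

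The 6 genes for which no strand was used are counted by the ends of the span instead. Over all 17 genes, the highest peak lay within 500 bp of either end in 7 (41.2%), against 17.5% of the highest peaks of all protein-coding genes. The 7 included Lama4, Lamc3, Itgb4, Itga3, Itga6 and Itgb1, and the seventh was Lamb2, in which the summit was 417 bp from the lower end. The highest peak of Lamc1, at 512 bp, lay just outside this limit. Lama4, Itga6 and Itgb1 held a single peak each, which thus counted as the highest. The shares of highest peaks were not matched for the number of peaks in a gene. Over all peaks the share within 500 bp of either end was 11.4% in the family and 10.7% in all genes.

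The number of peaks in relation to span was set by few genes. Laminin genes held 0.414 peaks per 10 kb of span, alpha chain genes 0.194 and beta chain genes 0.409, against 0.195 over all protein-coding genes. Without Lama5 the laminin value was 0.250, and without Itgb4 the beta value was 0.0992. Among the alpha chains, Itga3 held 13 of the 27 peaks in 32.4 of 1392 kb of span, so 0.194 also hangs on 1 gene. The alpha value without Itga3 was not computed. Lama5 and Itgb4 together held 44 of the 114 peaks. Transcript length was not used here, and laminin mRNAs are long.

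The fold enrichment of a peak fell as the background rose, in the family as in the whole list, so the classes were also compared at like background. Laminin peaks had a median background of 3.06 fragments, alpha chain peaks 1.75 and beta chain peaks 2.19. At a background below 1 fragment the median fold enrichment was 10.6 for 7 laminin peaks and 7.55 for 10 integrin peaks, against 6.56 for all 4034 peaks. From 1 to 2 fragments it was 7.53 for 14 laminin and 5.32 for 16 integrin peaks, against 6.48 overall. From 2 to 4 fragments it was 6.57 for 23 laminin and 5.06 for 16 integrin peaks, against 5.78. From 4 fragments up it was 4.91 for 21 laminin and 4.46 for 7 integrin peaks, against 4.37. The laminin median was thus above that of the pooled integrins in all 4 ranges. Against the alpha chains alone the order turned from 4 fragments up, where 4 alpha chain peaks had a median of 4.93 and 3 beta chain peaks one of 4.09. Without Lamc3 the laminin medians were 9.31 (2 peaks), 7.27, 6.88 and 4.91. Lama5 held 27 of the 65 laminin peaks, and Itgb4 and Itga3 held 17 and 13 of the 49 integrin peaks. The medians at like background without these genes were not computed. Peaks of 1 gene share their transcript, and no test was made of these differences.

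**Figure D3:**
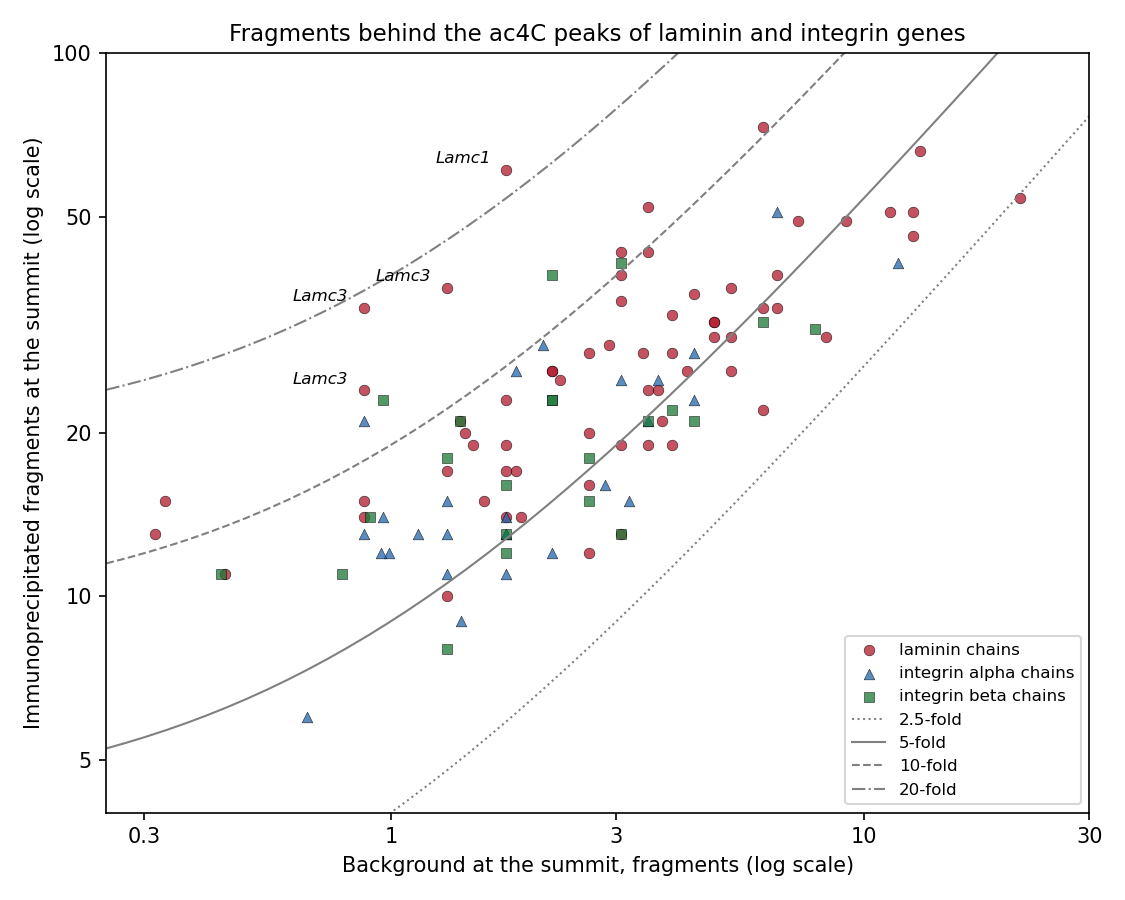
Immunoprecipitated fragments against background at the summit, both in fragments on log scales, for the 114 peaks of laminin genes (circles), integrin alpha genes (triangles) and integrin beta genes (squares); the lines mark equal fold enrichment. The highest peak of Lamc1 lies above the 20-fold line on 61 fragments, and the 3 highest of Lamc3 follow at backgrounds of 0.875 to 1.31 fragments.

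The highest peak of a gene also rises with the number of peaks it is drawn from. Over all protein-coding genes its median was 5.24 in genes with 1 peak, 6.46 with 2, 8.20 with 3 to 9 and 12.1 with 10 or more. The laminin and integrin genes stood at 5.09, 9.60, 8.86 and 11.8 in the same classes, on 5, 2, 5 and 5 genes. Only Lamc1 in its class (22.5, upper quartile 10.7), Lamc3 in its class (18.7, upper quartile 15.4), Itgav in its class (11.7, upper quartile 8.33) and Lama4 among genes with 1 peak (6.88, upper quartile 6.75) lay above the upper quartile of all genes.

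Other genes of the same adhesion system were counted from 4 lists. Focal adhesion genes, which link integrins to actin, held peaks in 24 of 30 (80.0%), with 188 peaks. The highest were Pxn at 18.2 (95% interval 13.2 to 24.5), Kank2 at 17.1 (13.0 to 22.2) and Tns1 at 15.0 (12.3 to 18.1). Pxn encodes the scaffold paxillin and Tns1 the actin-binding protein tensin. The 6 with no peak were Ptk2, Ilk, Lims1, Fermt1, Fermt2 and Parvg. Ptk2 encodes focal adhesion kinase, while Ilk and Lims1 belong to 1 complex at the integrin tail.

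Among hemidesmosome and other laminin receptor genes, 9 of 11 held a peak (81.8%), led by Plec at 11.7 (95% interval 8.39 to 15.9), Bcam at 9.19 (5.49 to 14.6) and Cspg4 at 8.06 (4.46 to 13.6). Plec, which ties Itgb4 to keratin filaments, held 13 peaks, and Bcam is a receptor for the chain made from Lama5. Col17a1 and Sdc2 held none. In the dystroglycan complex, a laminin receptor of muscle and epithelium, 12 of 20 held a peak (60.0%), among them Sspn at 14.1 (9.56 to 20.2) and Sgcd at 11.4 (6.57 to 18.6). The peak of Sgcd rested on 14 fragments over a background of 0.317, the lowest of the list. Dag1, the laminin-binding member itself, stood at 7.48 (6.21 to 8.92) on 121 fragments.

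Of 23 genes for integrin ligands other than laminin, 14 held a peak (60.9%). Ltbp1 at 15.1 (95% interval 9.69 to 22.5), Tgfb1 at 10.5 (7.46 to 14.3) and Fn1 at 10.05 (7.93 to 12.6) were the highest, and Fn1, the ligand of the Itga5 receptor, held 37 peaks. Spp1, Vtn, Vcam1, Icam2 and Madcam1 were among the 9 with none. All 4 lists thus stood above the 30.7% of all protein-coding genes, as did the laminin chains. The integrin chains stood above it by less, at 10 of 27 (37.0%). The lists were chosen with earlier results of these data known, so their shares are not independent of those results. Transcript abundance was not matched in any of these shares.

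**Figure D4:**
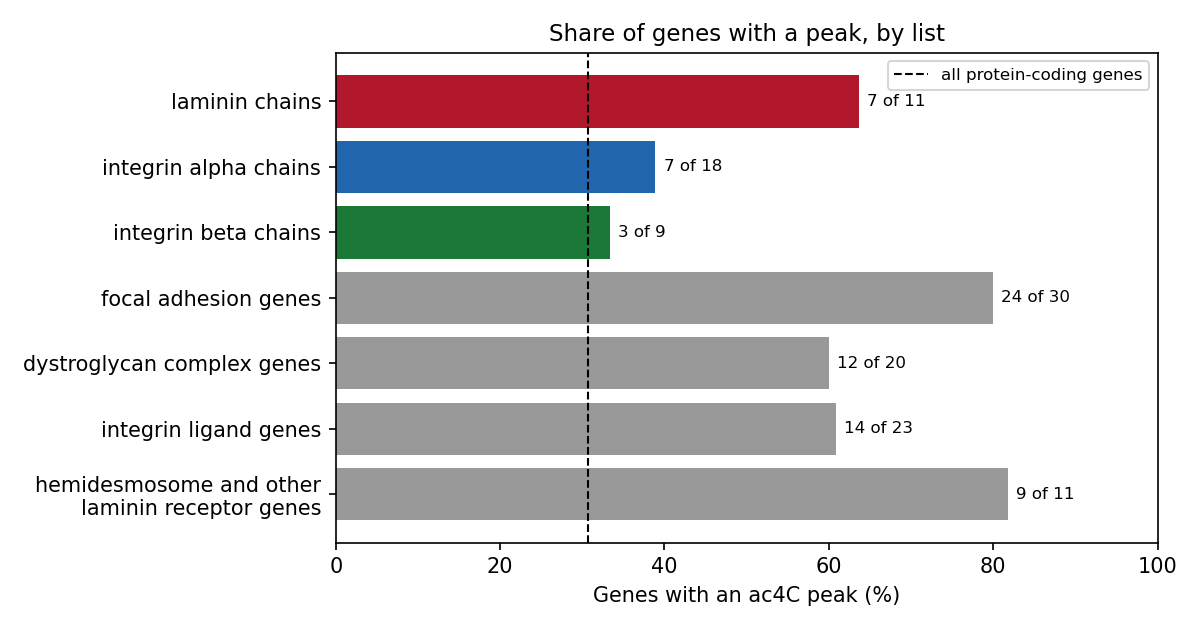
Share of genes with a peak (bars, in percent, with counts beside them) among laminin chains, integrin alpha and beta chains and 4 lists of genes of the same adhesion system; the dashed line is the share of all protein-coding genes, 30.7%. Hemidesmosome and other laminin receptor genes stood highest at 9 of 11, and integrin beta chains lowest at 3 of 9.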

How the data were processed

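The data were 1 list of peaks in the narrowPeak layout of 10 columns. HISAT2 2.2.1, MACS3 3.0.0a7 and the build mm10 are named in the submitters' processing notes; other steps were not given in the sources used here. The deposited list gives per peak a fold enrichment (a ratio to background), a −log10 p-value, a −log10 q-value and a score, all by the authors' peak caller; the largest q was 0.0499. Fragments and background at each summit were recovered as the whole number that matched both the fold enrichment (pseudocount 1) and the Poisson p-value. This was possible in 21192 of 21192 peaks within a relative tolerance of 1e-05 in the −log10 p (largest miss 8.58e-06). For 2000 of these peaks, fold enrichment and p-value were computed again from the recovered numbers by the same formulas. The same fragments came back in 100%, which checks the search and not the formulas. Genes came from RefSeq GRCm38.p6, and a summit gave its peak to each protein-coding gene whose span held it. Transcript starts and strands came from the RefSeq promoter table. With 1 library per group no test was made. Members are named, apart from items not reported here, with full values for the 4 of each class with the highest fold enrichment and the 2 with most peaks, and for the 3 highest of each other list. The members and lists were chosen with earlier results of these data known, and the groups of chains by ligand were set after the values were seen. Python 3.11.15 with SciPy 1.17.1 was used. Exon positions were not used.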

Additional observations from a re-analysis of the deposited data

How the results depend on the processing

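With peaks of a −log10 q of at least 10, laminin genes held 42 peaks (0.268 per 10 kb), alpha chain genes 7 (0.0503) and beta chain genes 10 (0.186), 3 alpha chain genes kept a peak, and their median highest fold enrichment was 9.67. With peaks at or above the median fold of the list, the peak numbers were 38 (0.242 per 10 kb), 12 (0.0862) and 11 (0.205). With at least 20 fragments, 3 alpha chain genes held 10 peaks (0.0718 per 10 kb; median 9.67) and beta chain genes 11 (0.205). The numbers of peaks and genes fall because fewer peaks are counted, while the alpha chain median rose from 6.87 to 9.67 with 3 of 7 genes left. With the median peak standing for each gene, laminin genes stood at 6.88, against 6.05 for alpha and 5.67 for beta chains. All 7 laminin genes kept a peak under the 5 alternatives that changed which peaks count. Over the family 12, 14 and 12 genes did under the 3 filters (31.6%, 36.8% and 31.6% of the family). The shares of all protein-coding genes were 17.6%, 20.4% and 19.5%. The genes lost were all integrins. Itga1, Itga7 and Itgb1 were lost under each filter, and Itga6 and Itga9 also under those by q and by fragments. Taking any base of the peak in place of the summit, or summits in 1 protein-coding gene only, left every value within 1.5 times of its own. Coding lengths were not used, so that alternative was not run. No paired analysis was possible because each group had 1 library. Weak sites on rare transcripts were not detectable: the lowest fold enrichment in the list was 3.34 at backgrounds below 0.5 fragments and 1.61 at 16 or more.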

Other observations

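Among hemidesmosome genes and the laminin and integrin chains found with them, Itgb4 held 17 peaks, Plec 13, Dst 5, Cd151 2 and Itga6 1, while Col17a1, Lama3 and Lamb3 held 0. These genes were set side by side after their values were seen.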
